A study of Homo sapiens with 20 samples.

Results

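The genes described here make cholesterol and fatty acids. A list of 31 genes was taken by name: 7 act in the mevalonate steps, 11 in the squalene and sterol steps, 6 are regulators or sterol carriers, and 7 act in fatty acid synthesis. A gene was measured by the brightest probe set, averaged over all arrays, among those annotated to it and no other gene. Of the 31 genes, 27 had such a probe set and 26 passed the filter on low values, which asked for a mean log2 level above 4.5 in at least 1 group, as 10834 of 19353 genes did in the whole series. MVD, the decarboxylase that yields isopentenyl diphosphate, did not pass, with group means of 2.90 in induced cells, 2.77 in mock-induced cells, 3.68 in parental cells with doxycycline and 3.53 in parental cells with vehicle. FDFT1 (squalene synthase) and HSD17B7 (a reductase of sterol demethylation) were not analysed here. CYP51A1 (lanosterol demethylase) and FADS1 (a fatty acid desaturase) had 2 each, all shared with another gene.

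Cholesterol is built from acetyl-CoA through mevalonate, isoprenoid diphosphates, squalene and lanosterol, and fatty acids are built from the same acetyl-CoA through malonyl-CoA. Both routes are controlled by the sterol regulatory element-binding proteins, transcription factors held in the membrane of the endoplasmic reticulum. When sterols are scarce, the escort protein SCAP carries them to the Golgi, where proteases release the active part, and when sterols are plentiful the INSIG proteins hold SCAP back. The pathway is known as a block of genes that is switched on and off together in dividing cells, which need sterols for new membrane. ZFP36 (tristetraprolin) is an RNA-binding protein that shortens the life of mRNAs carrying AU-rich elements.

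Levels came from 20 Affymetrix Human Genome U133 Plus 2.0 arrays in 4 groups of 5. All cells were of the human embryonic kidney line HEK293. The transgenic line was made in Flp-In T-REx HEK293 cells, a derivative that carries a site for a transgene and a tetracycline repressor. The methods call the control cells parental HEK293 cells and do not say whether they were of that derivative. Induced cells were a stable line holding EGFP-tagged human ZFP36 under a doxycycline promoter, given 1 µg/ml doxycycline for 16 h and sorted for green fluorescence, and mock-induced cells were the same line given water and sorted with fluorescent cells left out. Parental cells, without the transgene, were given the same doxycycline or water. The methods state that flasks were pooled for each sample, that each experiment was repeated on separate days, that induced flasks were less confluent than mock-induced ones, and that they held more rounded and floating cells. The sources used here do not say whether the transgenic line is 1 clone. In bulk RNA of this kind, fewer cells with a transcript and less transcript per cell cannot be told apart, nor can the transgene, the sort gate and the confluence of induced cells.

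The deposited values are GCRMA levels on the log2 scale, between 2.19 and 16.6, where a difference of 1 is a 2-fold difference in level. Within groups the mean correlation between arrays over tested genes was 0.995 in induced cells, 0.997 in mock-induced cells, 0.996 in parental cells with doxycycline and 0.995 in parental cells with vehicle. The ZFP36 probe set itself read 5.42 ± 0.49 in induced cells and 5.36 ± 0.43 in mock-induced cells (SD, n = 5 each; difference 0.07, exact two-sided permutation p = 0.833), against 3.76 ± 0.58 in parental doxycycline and 3.45 ± 0.56 in parental vehicle cells. The sources do not say whether that probe set lies in the part of the transcript that the transgene carries, so the induction is not checked by it. Of 10 HEK293 markers, 6 were tested, and NEFL, INA, CDH2 and VIM lay above the filter in all 4 groups, while NEFM read 5.81 in induced, 3.87 in mock-induced and 12.3 in both parental groups. PAX2, the sixth, passed through induced cells alone, at 4.86 in induced cells, 2.77 in mock-induced cells, 2.59 in parental cells with doxycycline and 2.60 in parental cells with vehicle. LHX1, which had a probe set, did not pass in any group. It read 2.19 in induced cells, 2.24 in mock-induced cells, 2.21 in parental cells with doxycycline and 2.19 in parental cells with vehicle. None of the 5 blood or 7 hepatocyte and adipocyte markers with a probe set passed the filter, and 1 of 9 fibroblast and endothelial markers did, COL3A1 at 8.17 in induced cells and 5.09 in mock-induced cells. The part of these marker differences in the results below was not tested.

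After induction, the called genes of this pathway lay in both directions. Of the 26 tested genes, 10 fell and 8 rose at a Bonferroni-adjusted p under 0.01 in limma, and the falls were larger than the rises. The falls ran from 2.85-fold (INSIG1) to 10.8-fold (SC5D), with a median of 3.47-fold, and the rises from 1.61-fold (ACAT2) to 2.67-fold (MVK), with a median of 1.79-fold. These sizes were not compared with those of called genes over the whole series, so they are not shown to be particular to this pathway. SC5D, HMGCS1, ACLY, MSMO1, STARD4, INSIG2, SQLE, SCD, SREBF2 and INSIG1 were the genes that fell, and MVK, ACACA, EBP, SCAP, NSDHL, LSS, DHCR7 and ACAT2 those that rose. The methods have treated and untreated cells handled together on each of several days, but no source ties the replicate numbers to those days. With the replicate number as a block, 9 genes fell and 2 rose (ACACA and EBP), and the calls of MVK, SCAP, NSDHL, LSS, ACAT2, DHCR7 and SREBF2 were lost. In that fit 1722 of all 10834 genes tested fell and 2029 rose. Without that block, 23.1% of all genes tested fell and 28.8% rose at this threshold (51.9% together). The genes here had 38.5% and 30.8% (69.2% together), so their share of rises is near the background. The 5 induced and 5 mock-induced arrays did not overlap for 24 of the 26 genes (92.3%), but that was so for 80.0% of all tested genes. At a Benjamini-Hochberg adjusted p under 0.05, 24 genes (92.3%) passed, against 87.7% of all tested genes. The median log2 difference was −0.05 over the 26 genes and 0.20 over all tested genes, and the median size of the difference was 0.99 and 0.84.

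Poly-A spike controls, which are added to the RNA before labelling, read 8.80 ± 0.24 on induced and 8.43 ± 0.18 on mock-induced arrays (SD, n = 5 each; exact two-sided permutation p = 0.0238). Hybridization controls, added afterwards, read 12.2 ± 0.10 on induced and 12.1 ± 0.12 on mock-induced arrays (exact two-sided permutation p = 0.143). The gap between the 3′ and 5′ probe sets of actin, which widens as RNA degrades, was 1.31 on induced and 1.52 on mock-induced arrays (exact two-sided permutation p = 0.0476), and that of GAPDH was 0.00047 on induced and 0.040 on mock-induced arrays (exact two-sided permutation p = 0.0556). The share of probe sets at the lowest value was 36.9% on induced, 37.5% on mock-induced and 35.9% on parental vehicle arrays (exact two-sided permutation p = 0.00794 for both steps, the smallest that 5 against 5 arrays can give). The part of these measures in the results was not tested. When each array was centred on the poly-A controls, the median difference of all genes moved to −0.16 and the share of falls among all called genes was 65.6%, against 44.5% on the deposited scale. On that scale 12 of the 26 genes fell, with FASN and IDI1 added, and 1 rose (MVK). Of all 10834 genes tested, 3245 fell and 1699 rose on it. Centring on the hybridization controls gave 10 falls and 4 rises (MVK, EBP, SCAP and ACACA), a median of 0.08 over all genes and a share of falls of 49.1%. With that centring 2596 of the 10834 genes fell and 2687 rose. All 10 falls listed above kept their call on both scales, whereas ACAT2, LSS, NSDHL and DHCR7 lost theirs on both.

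**Figure D1:**
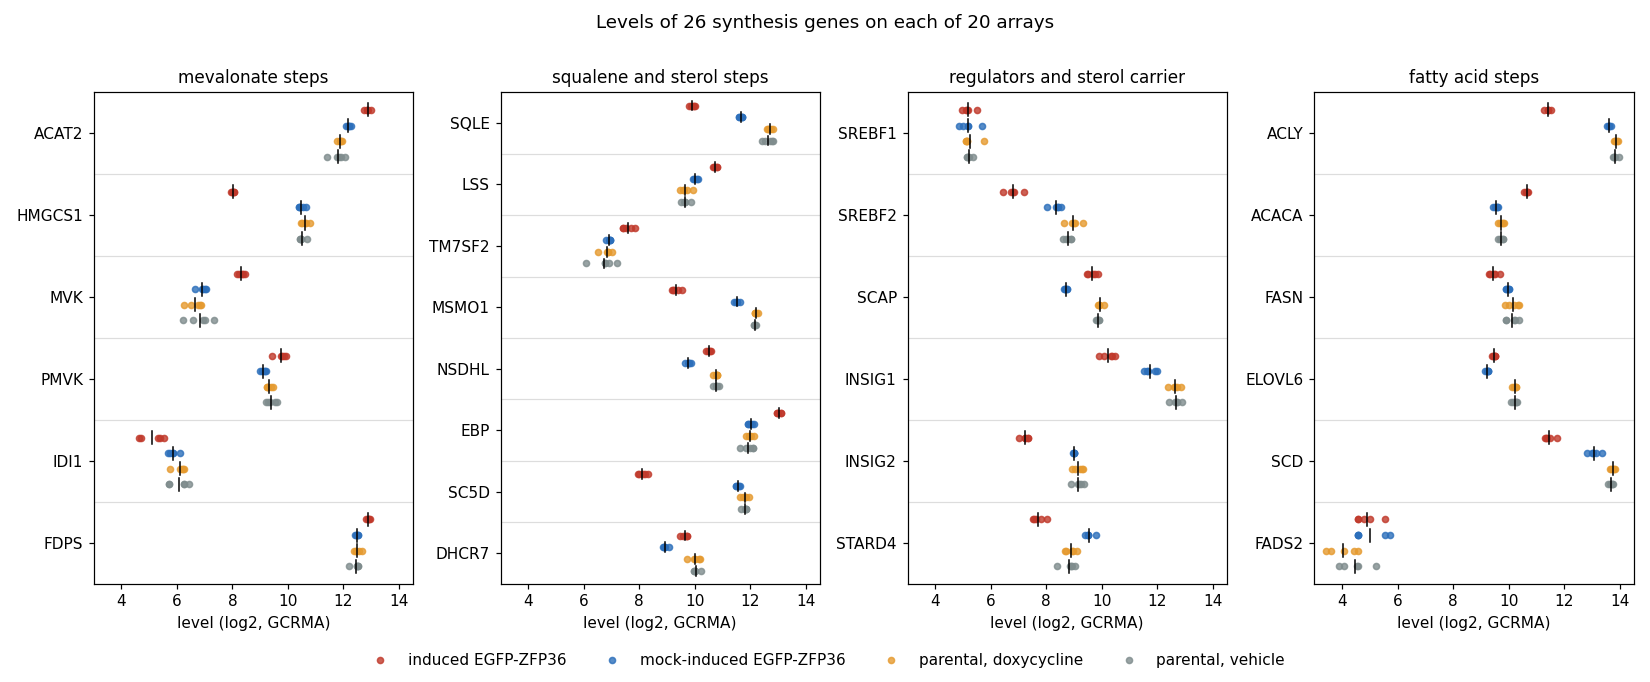
Levels of the 26 tested genes on each array, by role, on the log2 scale as deposited (horizontal axis). Points are the 5 arrays of a group, black ticks the group means, and the groups run downward from induced and mock-induced EGFP-ZFP36 cells to parental cells with doxycycline and with vehicle. SC5D had the widest gap between induced (8.11) and mock-induced (11.55) means, and both parental groups lay side by side for each gene.

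In the mevalonate steps, 1 of 6 tested genes fell, 2 rose and 3 did not pass. HMGCS1, the cytosolic synthase that makes HMG-CoA, read 8.04, 7.97, 7.94, 8.02 and 8.04 on the induced arrays, against 10.43, 10.40, 10.64, 10.41 and 10.52 on the mock-induced arrays. All 5 induced values lay more than 2 log2 units under every mock-induced value. The difference was −2.48 (SE 0.055; limma, Bonferroni-adjusted p = 1.59e-09), a 5.58-fold lower level. Parental cells had means of 10.61 with doxycycline and 10.51 with vehicle, level with the mock-induced mean of 10.48.

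MVK, the kinase that phosphorylates mevalonate, moved the other way and read 8.24, 8.43, 8.35, 8.39 and 8.17 in induced cells, against 7.06, 6.99, 6.90, 6.63 and 6.93 in mock-induced cells. Its groups did not overlap, and the level was 2.67-fold higher after induction (difference 1.41, SE 0.083; limma, Bonferroni-adjusted p = 4.34e-05). Without probe sets whose names end in _s_at or _x_at, MVK was read by a dimmer one that did not pass (difference 0.71). A further MVK probe set, 204056_s_at, was called higher in limma over all probe sets (difference 1.13). ACAT2, the thiolase that joins acetyl-CoA units at the head of the pathway, read 12.86, 12.85, 12.73, 12.89 and 13.005 in induced cells, against 12.08, 12.20, 12.21, 12.25 and 12.16 in mock-induced cells. Here too every induced array lay above every mock-induced array, by a smaller step of 0.69 (SE 0.056; limma, Bonferroni-adjusted p = 0.00136). FDPS, which makes farnesyl diphosphate, read 12.93, 12.90, 12.80, 12.88 and 12.97 in induced cells, against 12.49, 12.54, 12.53, 12.44 and 12.43 in mock-induced cells. Its groups did not overlap either, yet the difference of 0.41 (SE 0.046) missed the threshold with a Bonferroni-adjusted p of 0.0323 in limma. PMVK, the second kinase of the route, averaged 9.74 ± 0.20 in induced cells and 9.11 ± 0.089 in mock-induced cells (SD, n = 5 each), and IDI1, the isomerase of isopentenyl diphosphate, averaged 5.12 ± 0.41 in induced cells and 5.85 ± 0.16 in mock-induced cells. Neither passed (differences 0.62 and −0.73), so HMGCS1 and MVK, enzymes of the same route, differed in direction, and the tested steps after MVK gave no call.

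In the squalene and sterol steps, 3 of 8 tested genes fell and 4 rose. The 3 that fell were those with the largest steps. SC5D, the desaturase of the late sterol ring steps, read 8.30, 7.96, 8.12, 8.19 and 7.99 in induced cells, against 11.56, 11.58, 11.47, 11.63 and 11.50 in mock-induced cells. The highest induced array was more than 3 log2 units under the lowest mock-induced array, and the fall of 10.8-fold (difference −3.44, SE 0.068; limma, Bonferroni-adjusted p = 4.64e-10) was the largest among the 26 genes. MSMO1, the methylsterol oxidase of sterol demethylation, read 9.52, 9.38, 9.25, 9.23 and 9.17 in induced cells, against 11.50, 11.41, 11.63, 11.53 and 11.52 in mock-induced cells. Its groups stood apart with a 4.62-fold lower level in induced cells (difference −2.21, SE 0.071; limma, Bonferroni-adjusted p = 7.74e-08). SQLE, the epoxidase that is a rate-controlling step after squalene, read 10.002, 9.88, 9.98, 9.92 and 9.79 in induced cells, against 11.69, 11.60, 11.69, 11.69 and 11.58 in mock-induced cells. No array of one group reached the other, and the level was 3.33-fold lower (difference −1.73, SE 0.051; limma, Bonferroni-adjusted p = 3.16e-08).

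The genes that rose belong to the same route. EBP, the sterol isomerase that acts before SC5D, read 13.10, 13.01, 12.96, 13.12 and 12.95 in induced cells, against 12.06, 12.12, 11.999, 11.93 and 11.92 in mock-induced cells. Induced arrays were all higher, by 2.03-fold (difference 1.02, SE 0.056; limma, Bonferroni-adjusted p = 2.24e-05). NSDHL, the dehydrogenase that follows MSMO1 in demethylation, read 10.57, 10.56, 10.39, 10.50 and 10.47 in induced cells, against 9.78, 9.78, 9.77, 9.66 and 9.85 in mock-induced cells. The groups did not overlap and the difference was 0.73 (SE 0.051; limma, Bonferroni-adjusted p = 0.000272). DHCR7, the reductase that yields cholesterol from dehydrocholesterol, read 9.73, 9.68, 9.70, 9.59 and 9.46 in induced cells, against 8.93, 8.90, 9.08, 8.89 and 8.84 in mock-induced cells. Its rise of 0.70 (SE 0.065; limma, Bonferroni-adjusted p = 0.00465) was the weakest call of the 18 and was lost in 8 of the 10 fits with 1 array left out. LSS, which cyclises epoxidised squalene to lanosterol, averaged 10.73 ± 0.054 in induced cells and 10.02 ± 0.076 in mock-induced cells (SD, n = 5 each; difference 0.71, limma, Bonferroni-adjusted p = 0.000243). TM7SF2, a sterol reductase, averaged 7.58 ± 0.20 in induced cells and 6.91 ± 0.060 in mock-induced cells, without passing (difference 0.67). EBP, which acts before SC5D, and DHCR7, which acts after it, thus moved opposite to SC5D.

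CYP51A1 was not among the tested genes, since both of its probe sets are annotated to LRRD1 as well. The brighter of these, 202314_at, averaged 9.83 ± 0.25 in induced cells and 12.3 ± 0.16 in mock-induced cells (SD, n = 5 each), a difference of −2.44 (SE 0.12; limma over all 21543 probe sets, Bonferroni-adjusted p = 2.42e-05), and 12.8 in both parental groups. The other, 216607_s_at, averaged 8.73 in induced cells and 9.25 in mock-induced cells, without passing. Which of the annotated genes these signals come from cannot be told apart.

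Of the 6 regulators and carriers, 4 fell and 1 rose. INSIG2, which retains SCAP in the endoplasmic reticulum, read 7.35, 7.33, 7.25, 7.23 and 7.02 in induced cells, against 8.98, 9.01, 8.999, 8.98 and 8.99 in mock-induced cells. The mock-induced arrays were nearly identical and every induced array lay below them, a 3.38-fold fall (difference −1.76, SE 0.062; limma, Bonferroni-adjusted p = 2.14e-07). INSIG1, the other retention protein, read 10.33, 10.09, 10.47, 9.89 and 10.37 in induced cells, against 11.65, 11.50, 12.002, 11.64 and 11.91 in mock-induced cells. Its arrays spread more within groups but the groups did not overlap (difference −1.51, SE 0.13; limma, Bonferroni-adjusted p = 0.00168, 2.85-fold lower). The call for INSIG1 was lost without induced replicate 2 and without mock-induced replicate 5.

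STARD4, a cytosolic cholesterol transfer protein, read 7.65, 7.80, 8.01, 7.51 and 7.56 in induced cells, against 9.40, 9.52, 9.78, 9.49 and 9.51 in mock-induced cells. Induced arrays were all lower, by 3.57-fold (difference −1.84, SE 0.10; limma, Bonferroni-adjusted p = 2.56e-05). SCAP, the escort protein, was the regulator that rose and read 9.75, 9.67, 9.45, 9.86 and 9.49 in induced cells, against 8.74, 8.66, 8.68, 8.73 and 8.67 in mock-induced cells. Its 1.93-fold rise (difference 0.95, SE 0.076; limma, Bonferroni-adjusted p = 0.00104) separated the groups. SREBF2, which encodes the binding protein chiefly tied to sterol genes, averaged 6.80 ± 0.27 in induced cells and 8.36 ± 0.19 in mock-induced cells (SD, n = 5 each), a 2.94-fold fall (difference −1.56; limma, Bonferroni-adjusted p = 0.00190) that was lost in 7 of the 10 fits with 1 array left out. SREBF1, which encodes the binding protein chiefly tied to fatty acid genes, averaged 5.18 ± 0.19 in induced cells and 5.18 ± 0.31 in mock-induced cells, near the filter, and its groups overlapped (difference 0.00, 95% interval −0.32 to 0.32).

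The mRNA sites that ZFP36 bound in cross-linked cells were mapped by the study with PAR-CLIP, and part of that site table was used here, for its sequences only. In it 3 sites lie in genes described here, and they are shown because these are the stretches of member RNA that the table places under ZFP36. Capitals mark the AUUUA pentamer, the core of an AU-rich element, written with T as in the table, and coordinates are hg19.
MSMO1, 3′ UTR, chr4:166263496-166263521, plus strand: ccttatATTTAactttttttttattt
INSIG1, 3′ UTR, chr7:155100425-155100444, plus strand: atttttaaaaatagggctgt
LSS, intron, chr21:47621646-47621665, minus strand: ttactttaacactATTTAta
The MSMO1 site, listed under the older symbol SC4MOL, holds 1 pentamer and 2 copies of TATT, the INSIG1 site holds neither, and the LSS site holds 1 of each. MSMO1 and INSIG1 fell and LSS rose. SC5D, with the largest fall, had no site in the part of the table used here, which is not the whole table, so no count of genes with and without sites is given.

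Promoter windows of 300 bases (250 before to 50 after the annotated start) were taken from RefSeq on GRCh38.p14 for 27 of the 31 genes, 1 window for each. They were searched on both strands for TCACCCCAC, the greater part of the classical sterol regulatory element, for CACGTG, an E-box that the binding proteins can also recognise, and for CCAAT, the box of their partner NF-Y. Among all 27305 genes with a window, 0.425% held TCACCCCAC, 7.43% held CACGTG and 35.7% held CCAAT. Among the 27 windows here, TCACCCCAC was in 1 (SREBF2), CACGTG in 4 (SC5D, INSIG1, SCAP and LSS) and CCAAT in 17, or 63.0%. CCAAT was present in 8 of 9 windows of genes that fell, 5 of 7 of genes that rose and 2 of 7 of tested genes that were not called. The 4 windows shown here were chosen from the gene with the largest fall, the regulators SREBF2 and INSIG1, and from EBP, which rose. In them capitals mark the motifs on either strand (CCAAT reads ATTGG on the other strand).
SC5D, chr11:121292521-121292820, plus strand: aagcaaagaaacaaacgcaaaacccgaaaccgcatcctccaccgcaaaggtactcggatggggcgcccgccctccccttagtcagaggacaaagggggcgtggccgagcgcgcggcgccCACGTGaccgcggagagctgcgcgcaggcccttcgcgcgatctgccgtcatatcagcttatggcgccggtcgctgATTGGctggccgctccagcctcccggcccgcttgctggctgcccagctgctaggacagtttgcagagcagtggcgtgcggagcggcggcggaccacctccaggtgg
SREBF2, chr22:41832855-41833154, plus strand: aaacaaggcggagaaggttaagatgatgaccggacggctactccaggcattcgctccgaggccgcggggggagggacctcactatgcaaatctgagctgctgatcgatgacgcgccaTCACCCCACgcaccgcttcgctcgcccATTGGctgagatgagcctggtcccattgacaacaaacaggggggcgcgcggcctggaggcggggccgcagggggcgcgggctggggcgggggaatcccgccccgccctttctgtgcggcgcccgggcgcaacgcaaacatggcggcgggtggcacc
INSIG1, chr7:155297628-155297927, plus strand: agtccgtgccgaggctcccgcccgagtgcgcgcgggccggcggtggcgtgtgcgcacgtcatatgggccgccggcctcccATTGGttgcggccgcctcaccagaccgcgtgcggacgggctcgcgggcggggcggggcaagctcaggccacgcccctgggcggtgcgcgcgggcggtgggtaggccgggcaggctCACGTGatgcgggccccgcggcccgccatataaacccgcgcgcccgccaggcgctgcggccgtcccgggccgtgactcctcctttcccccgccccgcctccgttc
EBP, chrX:48521558-48521857, plus strand: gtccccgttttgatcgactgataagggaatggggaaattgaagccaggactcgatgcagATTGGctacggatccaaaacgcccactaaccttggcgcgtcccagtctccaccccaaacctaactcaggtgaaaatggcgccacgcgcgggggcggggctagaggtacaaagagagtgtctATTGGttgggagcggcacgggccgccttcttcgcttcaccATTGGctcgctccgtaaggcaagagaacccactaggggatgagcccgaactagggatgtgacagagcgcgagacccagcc
No marked motif overlaps another in these 4 windows. SC5D and INSIG1, which fell, and LSS and SCAP, which rose, each held 1 CACGTG, so this motif stood in windows of genes of both directions.

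Among the fatty acid genes, 2 of 6 tested fell, 1 rose and 3 did not pass. ACLY, the lyase that makes cytosolic acetyl-CoA for both routes, read 11.51, 11.42, 11.41, 11.29 and 11.40 in induced cells, against 13.55, 13.63, 13.62, 13.62 and 13.69 in mock-induced cells. Every induced array lay about 2 log2 units under the mock-induced arrays, a 4.64-fold fall (difference −2.21, SE 0.049; limma, Bonferroni-adjusted p = 1.59e-09). SCD, the desaturase that makes monounsaturated fatty acids, read 11.49, 11.30, 11.75, 11.35 and 11.38 in induced cells, against 13.01, 12.81, 13.35, 13.13 and 13.05 in mock-induced cells. The groups did not overlap (difference −1.62, SE 0.11; limma, Bonferroni-adjusted p = 0.000184, 3.07-fold lower). ACACA, the carboxylase that makes malonyl-CoA, read 10.55, 10.63, 10.67, 10.70 and 10.68 in induced cells, against 9.50, 9.60, 9.58, 9.62 and 9.43 in mock-induced cells. By this probe set it was 2.14-fold higher (difference 1.10, SE 0.050; limma, Bonferroni-adjusted p = 3.51e-06), but its other probe set fell, as described below.

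FASN, the fatty acid synthase, read 9.31, 9.49, 9.30, 9.70 and 9.46 in induced cells, against 9.92, 9.91, 10.02, 10.03 and 9.96 in mock-induced cells. Its groups did not overlap, but the difference of −0.51 (SE 0.075) did not pass (limma, Bonferroni-adjusted p = 0.335). ELOVL6, the elongase of long saturated chains, read 9.52, 9.49, 9.44, 9.40 and 9.52 in induced cells, against 9.25, 9.16, 9.25, 9.21 and 9.27 in mock-induced cells. The step of 0.25 (SE 0.043) did not pass either. FADS2, a desaturase of polyunsaturated fatty acids, averaged 4.90 ± 0.41 in induced cells and 4.998 ± 0.59 in mock-induced cells, with overlapping groups near the filter (difference −0.10, 95% interval −0.72 to 0.52). FADS1 was measured by probe sets that also name MIR1908, and the one that passed, 208964_s_at, averaged 9.12 ± 0.09 in induced cells and 8.21 ± 0.16 in mock-induced cells (SD, n = 5 each; difference 0.91, limma over all probe sets, Bonferroni-adjusted p = 0.00936), with 9.58 in parental doxycycline and 9.59 in parental vehicle cells. The brighter one, 208962_s_at, averaged 9.87 in induced cells and 8.96 in mock-induced cells. Its difference was also 0.91 and missed the threshold (limma over all probe sets, Bonferroni-adjusted p = 0.0117).

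**Figure D2:**
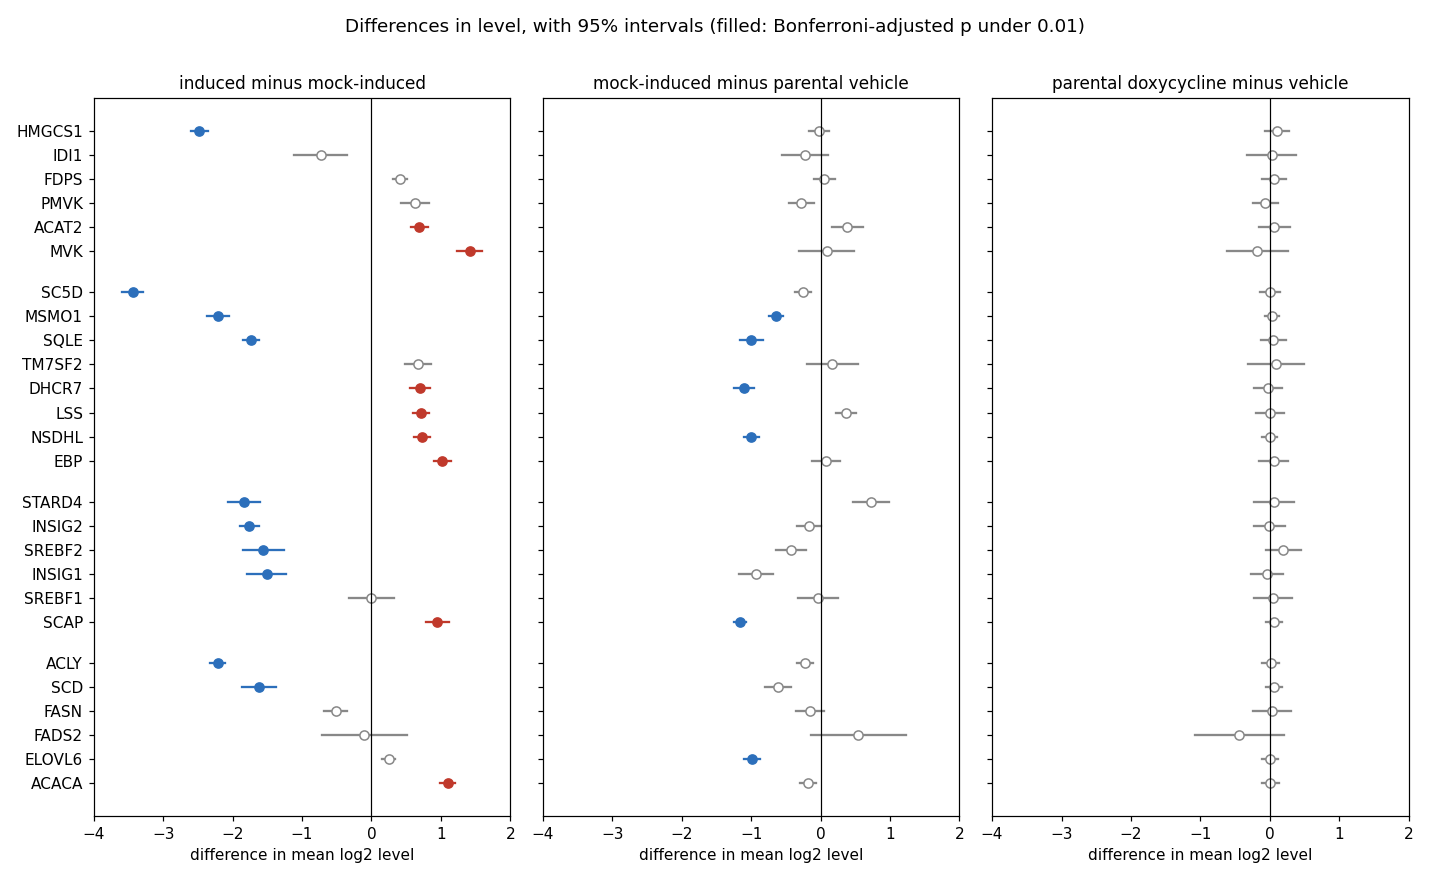
Differences in mean log2 level (horizontal axis) of the 26 tested genes, grouped by role, with 95% intervals from limma, for induced minus mock-induced, mock-induced minus parental vehicle, and parental doxycycline minus vehicle cells. Filled points passed a Bonferroni-adjusted p under 0.01: 10 lower and 8 higher, then 6 lower and 0 higher, then none, with all differences between doxycycline and vehicle in parental cells from −0.44 to 0.20.

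The study gave doxycycline to parental cells to control for the drug itself. There, doxycycline against vehicle called 0 of the 26 genes at the Bonferroni threshold and 0 at a Benjamini-Hochberg adjusted p under 0.05, as for all 10834 genes tested, where 0.0% fell, 0.0% rose and 0.0% passed the Benjamini-Hochberg threshold. At an unadjusted p under 0.05 in limma, 0 of the 26 genes passed, against 241 of all genes (2.22%). The differences ran from −0.44 (FADS2) to 0.20 (SREBF2). For SC5D the difference was −0.0016 with a 95% interval of −0.15 to 0.14, and for HMGCS1 it was 0.11 with a 95% interval of −0.062 to 0.27, both intervals far inside the falls after induction.

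The interaction, which asks whether the response to doxycycline differed between the transgenic and the parental line, passed for 15 genes. It was negative for 10 (38.5%, against 22.1% of all genes tested) and positive for 5 (19.2%, against 25.8%). The negative ones were the 10 genes that fell after induction, from −1.48 for INSIG1 to −3.44 for SC5D (limma, Bonferroni-adjusted p = 0.000451 and 4.77e-15). The positive ones were MVK (1.59), ACACA (1.09), EBP (0.97), SCAP (0.88) and NSDHL (0.73). ACAT2, LSS and DHCR7 did not pass, and MVK lost its call in 17 of the 20 fits with 1 array left out. The 5 positive calls were all lost when arrays were centred on the hybridization controls or on the poly-A controls. Over all 10834 genes, positive calls were 2791 on the deposited scale, 1147 on hybridization controls and 503 on poly-A controls. On the poly-A controls 5 of the 10 negative calls were lost as well (INSIG1, INSIG2, SCD, SQLE and SREBF2). Negative calls over all genes were 2399 on the deposited scale and 993 on the poly-A controls.

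Levels also differed between transgenic and parental cells without induction. The methods state that the parental cells were passaged at another dilution, grown for a shorter time and treated in experiments of their own, so the line and its culture cannot be told apart. Mock-induced against parental vehicle cells, 6 of the 26 genes were lower (23.1%, against 10.9% of all genes tested) and 0 higher (0.0%, against 13.2%), and the median difference was −0.20 over the 26 genes and 0.00 over all genes. SCAP had the largest step and read 8.74, 8.66, 8.68, 8.73 and 8.67 in mock-induced cells, against 9.84, 9.88, 9.78, 9.90 and 9.90 in parental vehicle cells. All mock-induced arrays lay about 1 log2 unit lower (difference −1.16, SE 0.041; limma, Bonferroni-adjusted p = 3.06e-07). DHCR7 read 8.93, 8.90, 9.08, 8.89 and 8.84 in mock-induced cells, against 9.98, 10.22, 10.02, 9.99 and 9.95 in parental vehicle cells. Again no mock-induced array reached a parental one (difference −1.10, SE 0.065; limma, Bonferroni-adjusted p = 5.35e-05). NSDHL read 9.78, 9.78, 9.77, 9.66 and 9.85 in mock-induced cells, against 10.67, 10.86, 10.78, 10.76 and 10.76 in parental vehicle cells (difference −0.997, limma, Bonferroni-adjusted p = 9.76e-06). Its groups lay nearly 1 log2 unit apart. ELOVL6 read 9.25, 9.16, 9.25, 9.21 and 9.27 in mock-induced cells, against 10.09, 10.25, 10.15, 10.30 and 10.26 in parental vehicle cells, also without overlap (difference −0.99, limma, Bonferroni-adjusted p = 1.31e-05).

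In mock-induced cells SQLE and MSMO1 were lower as well. SQLE read 11.69, 11.60, 11.69, 11.69 and 11.58 in mock-induced cells, against 12.72, 12.80, 12.77, 12.42 and 12.52 in parental vehicle cells (difference −0.996, SE 0.076; limma, Bonferroni-adjusted p = 0.000792), and MSMO1 read 11.50, 11.41, 11.63, 11.53 and 11.52 in mock-induced cells, against 12.22, 12.12, 12.18, 12.12 and 12.18 in parental vehicle cells (difference −0.64, SE 0.048; limma, Bonferroni-adjusted p = 0.000581). For both genes no mock-induced array reached a parental one. INSIG1 (−0.94, Bonferroni-adjusted p = 0.0546 in limma) and SCD (−0.61, Bonferroni-adjusted p = 0.303 in limma) had steps down that did not pass, and STARD4 had the largest step up (0.72), which did not pass either. The other 2 SCD probe sets were called lower in the fit over all 21543 probe sets (−1.65 and −2.23; limma, Bonferroni-adjusted p = 0.00310 and 0.00276), as was the dimmer ACACA probe set (−1.17; limma, Bonferroni-adjusted p = 4.68e-05). When the probe sets of each gene were averaged, SCD and ACACA were called lower and SQLE was not. All 6 calls were lost when arrays were centred on the poly-A controls, whose mean on the parental vehicle arrays spread from 7.68 to 9.22. On that scale 289 of all 10834 genes tested were lower and 648 higher, against 1180 and 1425 on the deposited scale.

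The comparisons with mock-induced cells share those 5 arrays, so their differences are not independent and are given side by side only. SQLE averaged 9.91 in induced, 11.65 in mock-induced and 12.64 in parental vehicle cells, and MSMO1 averaged 9.31, 11.52 and 12.16 in the same order. These 2 genes stepped down in both comparisons. NSDHL averaged 10.50 in induced, 9.77 in mock-induced and 10.77 in parental vehicle cells, DHCR7 averaged 9.63, 8.93 and 10.03, and SCAP averaged 9.64, 8.70 and 9.86, again in that order. These 3 were lowest in mock-induced cells, and their induced means lay within 0.5 log2 units of the parental ones. By the probe sets used, SC5D, HMGCS1 and ACLY were close to their parental levels before induction. Their mock-induced means were 11.55, 10.48 and 13.62 and their parental vehicle means 11.80, 10.51 and 13.84. The SC5D and ACLY groups did not overlap, without a call. The dimmer HMGCS1 probe set averaged 6.63 in mock-induced and 7.49 in parental vehicle cells. The other ACLY probe sets differed by −0.35 and −0.50 between those groups. None of these was called. No test of induced against parental cells was made.

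Several genes are read by more than 1 probe set, which bears on how firmly a direction can be stated. In all, 55 probe sets name 1 of these genes alone and 47 of them passed the filter, and 13 genes had more than 1 of these. For 10 of the 13 genes all tested probe sets differed in the same direction between induced and mock-induced cells. ACLY fell by all 3 of its probe sets (−2.21, −2.05 and −1.85) and EBP rose by all 3 (1.02, 0.90 and 0.81), the last not called. SQLE was called lower by 3 of its 4 (−1.73, −2.16 and −1.56), and DHCR7 was called higher by its dimmer one (0.91) but not by the one used here in this fit over 21543 probe sets.

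ACACA was the gene whose probe sets were called in opposite directions. The brighter, 212186_at, averaged 10.6 ± 0.06 in induced cells and 9.55 ± 0.08 in mock-induced cells (SD, n = 5 each; difference 1.10, limma over all probe sets, Bonferroni-adjusted p = 1.65e-05). The dimmer, 214358_at, averaged 5.45 ± 0.34 in induced cells and 7.27 ± 0.08 in mock-induced cells (difference −1.82, limma over all probe sets, Bonferroni-adjusted p = 0.00204), with 8.39 in parental doxycycline and 8.44 in parental vehicle cells. Its arrays ran from 4.88 to 5.71 in induced and from 7.20 to 7.40 in mock-induced cells, so the direction given for ACACA holds for 1 probe set and the opposite for the other. ELOVL6 read 0.25 and 0.52 by its brighter probe sets and −1.14 by 227491_at, and SREBF2 read −1.56 by 201247_at and 0.26 by 242748_at, where only the −1.56 was called. SCD fell by 1.62 at the probe set used and had differences of −0.50 and −1.26 at the others, neither of them called.

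**Figure D3:**
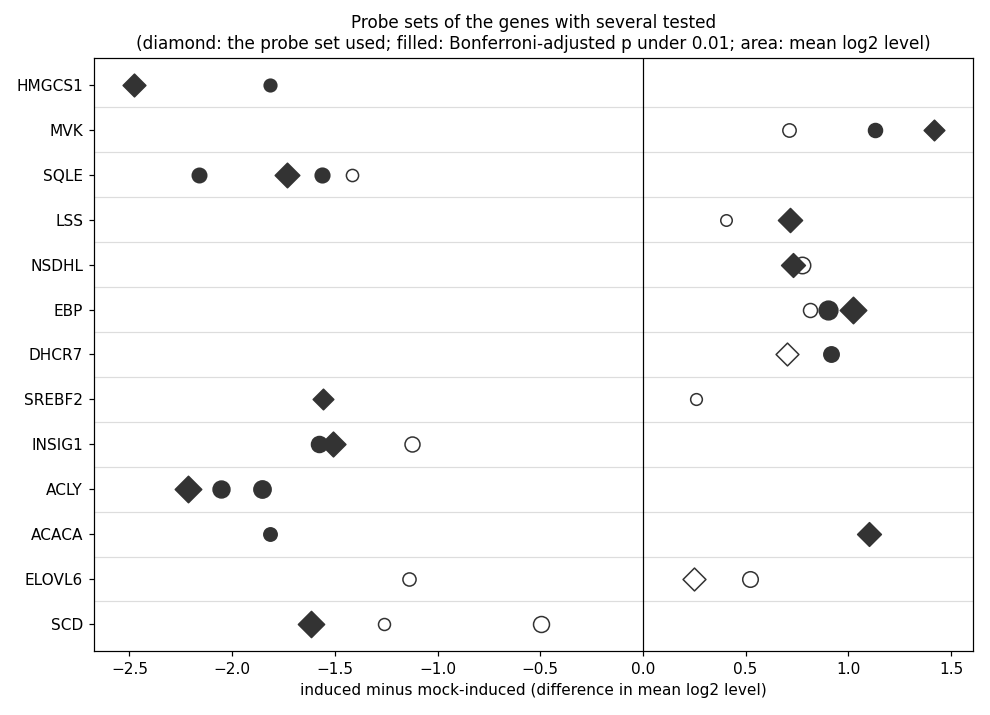
Difference in mean log2 level, induced minus mock-induced (horizontal axis), for each tested probe set of the 13 genes with several. Diamonds are the probe sets used for the gene, filled symbols passed a Bonferroni-adjusted p under 0.01 over 21543 probe sets, and symbol area grows with the mean level; ACACA has filled symbols on both sides of 0, at 1.10 and −1.82.

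Neighbouring pathways, listed with earlier results of these data known, were read on the same scale for induced against mock-induced cells, beside 23.1% of all genes falling and 28.8% rising. Among genes that cleave, escort or turn over the binding proteins and their sensors, 5 of 13 tested fell and 4 rose, with a median of −0.38. MBTPS2, the Golgi protease that makes the second cut in the binding proteins, averaged 7.92 ± 0.11 in induced cells and 11.6 ± 0.06 in mock-induced cells (SD, n = 5 each), a 12.5-fold fall (difference −3.64, SE 0.058; limma, Bonferroni-adjusted p = 4.71e-11). That step was larger than any among the 26 synthesis genes. ERLIN2, an endoplasmic reticulum protein of sterol-regulated degradation, averaged 8.33 in induced cells and 11.1 in mock-induced cells (difference −2.77), and SPRING1, a partner of the first protease, averaged 9.58 in induced cells and 11.5 in mock-induced cells (difference −1.94). The parental vehicle means of MBTPS2, ERLIN2 and SPRING1, at 11.3, 10.98 and 11.5, lay close to the mock-induced ones.

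Among other genes of fatty acid synthesis, elongation and activation, 10 of 23 tested fell and 5 rose. HSD17B12, the ketoacyl reductase of chain elongation, averaged 9.28 ± 0.16 in induced cells and 12.6 ± 0.06 in mock-induced cells (SD, n = 5 each), a 10.2-fold fall (difference −3.35; limma, Bonferroni-adjusted p = 1.77e-09), and the elongases ELOVL7 and ELOVL4 fell by 2.56 and by 2.37 on the log2 scale. In the isoprenoid branch, which leaves the mevalonate route at farnesyl diphosphate, 6 of 13 fell and 4 rose. ZMPSTE24, a protease of prenylated proteins, fell (−2.80), while GGPS1, the synthase of geranylgeranyl diphosphate, and DHDDS, a subunit of the dolichol-making transferase, rose (1.46 and 1.54).

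Cholesterol transport, storage and efflux had 5 falls and 6 rises among 17 tested genes. The lysosomal membrane protein SCARB2 fell by 1.96 and SOAT1, which esterifies cholesterol for storage, by 1.36 on the log2 scale, and OSBP, an oxysterol-binding transfer protein, rose by 1.05. Fatty acid oxidation had 4 falls and 9 rises among 22, with ACADM (−2.57) and ETFA (−1.03) lower and ETFDH (1.13) higher, all proteins that pass electrons from fatty acids. Glycerolipid and phospholipid synthesis had 3 falls and 7 rises among 20, and the 3 calls with the smallest p were the falls of the choline phosphotransferase CHPT1 (−2.64), the acyltransferase AGPAT5 (−2.10) and the choline and ethanolamine phosphotransferase CEPT1 (−1.02). The 7 rises ran from 0.86 (PCYT1A) to 2.23 (AGPAT4), both named after their values were seen. The list medians were −0.29 for the isoprenoid branch, −0.36 for other fatty acid synthesis, 0.53 for cholesterol transport, 0.66 for oxidation and 0.64 for glycerolipids, beside −0.05 for the 26 synthesis genes and 0.20 for all genes.

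**Figure D4:**
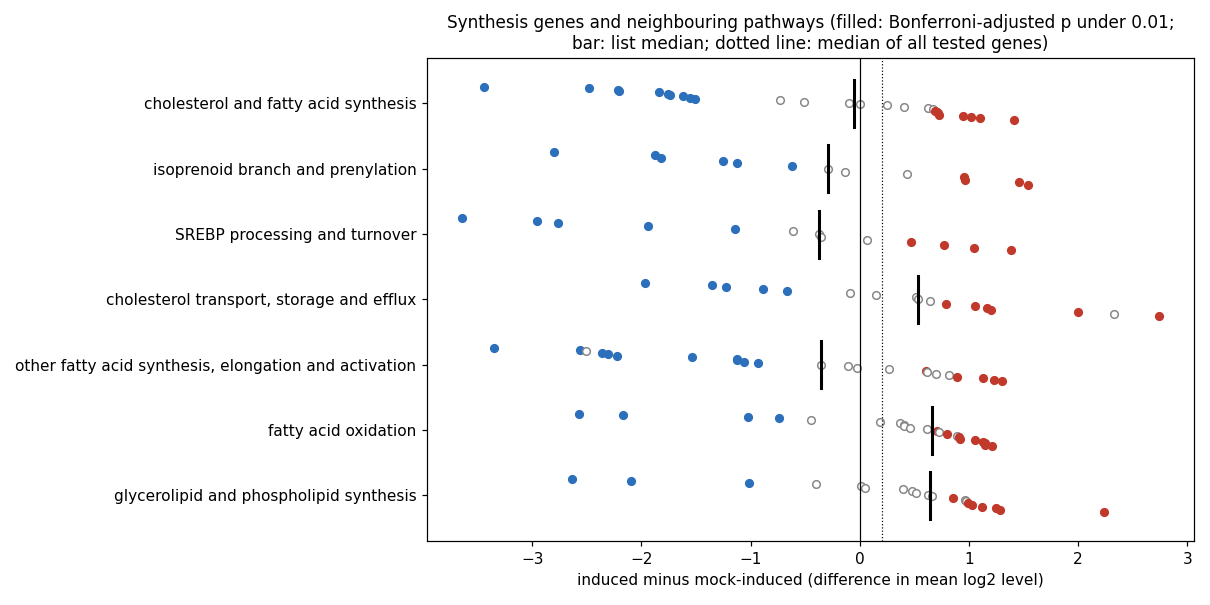
Difference in mean log2 level, induced minus mock-induced (horizontal axis), of each tested gene in the synthesis list and 6 neighbouring lists. Filled points passed a Bonferroni-adjusted p under 0.01 (blue lower, red higher), black bars are list medians and the dotted line is the median of all tested genes, 0.20; each list holds filled points on both sides of 0.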

How the data were processed

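RNA of 20 samples (4 groups of 5, grouped by the sample labels) was hybridized to U133 Plus 2.0 arrays. The authors normalized the arrays with GCRMA, and the deposited log2 values of 50441 probe sets were used as they are, of which 36.6% sit at the lowest value. Of the probe sets, 38070 are annotated to exactly 1 gene in the platform annotation, 1423 to several and 10886 to none, and 62 are controls. Genes with a group mean above 4.5 were tested, the study's filter, with the brightest probe set for each.

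Limma 3.58.1 (R 4.3.3) was run over all tested genes, using lmFit and eBayes, for each comparison on its own arrays and for the interaction on all 20. Calls needed a Bonferroni-adjusted p under 0.01, the study's threshold; its test is not named in the sources used here. Folds are 2 to the power of the log2 difference, intervals are 95% intervals from limma, and single values were compared by exact two-sided permutation. The number of arrays limits the precision. Fits were tested on simulated data over 10834 genes with 5 against 5 arrays. There, 26.9%, 67.2% and 92.4% of genes changed by 0.5, 1 and 2 on the log2 scale were called, with 0 false calls. The noise was independent for each gene and array, no array effect was drawn, and few genes were changed. Because these data differ in that, the 0 false calls do not bear on the calls made here. No 2 arrays shared more than 1.60% of their values above 5. Python 3.11.15, pandas 2.3.3, scipy 1.17.1 and matplotlib 3.10.9 were used for tables, exact tests and figures.

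The members and lists were chosen with earlier results of these data known. All 31 genes are named. Values of every array are given for the 4 genes of each role with the smallest p after induction and for those called between mock-induced and parental vehicle cells. For neighbouring lists up to 3 called genes with the smallest p are named. Alternatives changed the probe sets, filter, scaling, spread, threshold, replicates and block.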

Additional observations from a re-analysis of the deposited data

Results flagged for a closer look

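Between the lines, the response to doxycycline differed for 15 genes by limma's interaction over all 10834 genes (Bonferroni-adjusted p under 0.01). On the log2 scale the interaction was −3.44 for SC5D, −2.58 for HMGCS1, −2.24 for MSMO1, −2.23 for ACLY, −1.90 for STARD4, −1.79 for SQLE, −1.75 for SREBF2 and INSIG2 each, −1.68 for SCD and −1.48 for INSIG1. It was 1.59 for MVK, 1.09 for ACACA, 0.97 for EBP, 0.88 for SCAP and 0.73 for NSDHL.

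Of 104 groups of 5 arrays examined, 8 had 1 array far from the other 4 for its range. Chance flags about 1 in 20 of independent groups. The groups share arrays and are not independent, so the count cannot be set against that rate. On parental vehicle arrays these were a high array for HMGCS1 (10.7, group median 10.5) and DHCR7 (10.2, median 9.99). Replicate 4 of that group was the low array for FDPS (12.2, median 12.5), SC5D (11.7, median 11.8) and STARD4 (8.38, median 8.90) alike. On parental doxycycline arrays replicate 5 was the high array for MSMO1 (12.3, median 12.2), SREBF1 (5.77, median 5.15) and SCAP (10.1, median 9.90) alike. No induced or mock-induced array was among them.

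Outside the tested genes, the brighter probe set that names CYP51A1 together with LRRD1 fell after induction (difference −2.44 on the log2 scale). The dimmer one that names FADS1 together with MIR1908 was higher by 0.91. The brighter FADS1 probe set and the dimmer CYP51A1 probe set did not pass.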

How the results depend on the processing

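Of the alternatives tried for each count of calls, these moved one by over 1.5 times. Without probe sets whose names end in _s_at or _x_at, the 8 rises after induction were 5, while the 10 falls were 7, a smaller move. Over all 8502 genes then tested, 2166 fell and 2166 rose, against 2500 and 3123 of 10834 in the main fit. In that setting ACAT2, ACLY, DHCR7 and SCD had no measurement, SC5D was left with a probe set under the filter, and MVK did not pass. The 8 rises were 5 with no filter, 5 with a separate spread for each group, 4 centred on hybridization controls and 1 on poly-A controls. The 10 falls were 6 with a separate spread. Rises over all genes were 2299 of 19353 with no filter. Of 10834 genes, 1635 rose with a separate spread, 2687 on hybridization controls and 1699 on poly-A controls. Falls over all genes were 1267 with a separate spread. The 6 genes lower in mock-induced cells, set against parental vehicle cells, were 0 on poly-A controls and 13 at a Benjamini-Hochberg adjusted p under 0.05, where 3 were higher. Over all 10834 genes, 289 were lower on poly-A controls. At the Benjamini-Hochberg threshold 4026 of them were lower and 4084 higher. The interaction gave 5 negative calls and 0 positive on poly-A controls, 0 positive on hybridization controls, and 12 positive at a Benjamini-Hochberg adjusted p under 0.05. Over all 10834 genes it gave 993 negative and 503 positive calls on poly-A controls. Positive calls over all genes were 1147 on hybridization controls and 5105 at the Benjamini-Hochberg threshold. Leaving out 1 array gave 8 to 10 falls and 7 to 9 rises after induction, 6 lower and 0 higher in mock-induced cells, and 10 negative and 4 to 6 positive interactions. Parental cells gave 0 calls in every fit run.

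Whether replicate numbers pair the arrays was not settled. No source ties the numbers to days, and same-numbered induced and mock-induced arrays correlated in their deviations from the group means by 0.13 to 0.22 for 4 numbers and by 0.015 for replicate 2, with 3 of 5 arrays correlating best with their own number. Mock-induced and parental cells came from separate experiments and share only a number. With the replicate number as a block, 9 genes fell and 2 rose after induction (11 of the 18 calls remained), 2 (NSDHL and SCAP) were lower in mock-induced cells, and the interaction gave 10 negative and 4 positive calls. Over all 10834 genes these fits gave 1722 falls and 2029 rises after induction. They gave 364 lower and 669 higher in mock-induced cells, and 1978 negative and 2146 positive interactions.

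Signs turned for genes without a call or with disagreeing probe sets. With all probe sets averaged, ACACA read −0.36 after induction and −0.34 in the interaction, and ELOVL6 −0.12, as did ELOVL6 on poly-A controls (−0.12). SREBF1 read −0.12 on hybridization and −0.36 on poly-A controls and between −0.083 and 0.13 without single arrays (4 of them −0.078, −0.044, −0.0018 and −0.083), and FADS2 between −0.27 and 0.080 without single arrays (0.039 and 0.080 without mock-induced replicate 2 or 3). The causes were not tested.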
